A study of Danio rerio with 6 samples.

Results

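The genes described here encode the contractile proteins of muscle and their smooth muscle and non-muscle relatives, followed in the hair cells of the zebrafish inner ear and in the non-sensory cells around them (nsSCs). They are the 103 genes, of 31701 Ensembl genes measured throughout, whose symbol belongs to the myosin heavy and light chains, muscle actins, alpha-actinins, tropomyosins, troponins, titin, nebulin, telethonin, myosin binding proteins C, ryanodine receptors, transgelins, calponins or smoothelins. The rule of choice used names alone and no expression value, although it was set with earlier results of these data known. By form, 66 were striated muscle genes, 10 smooth muscle genes and 11 non-muscle genes. A further 5 were light chain genes used by both smooth muscle and non-muscle cells. The other 11, the tropomyosins and ryanodine receptors, were put as whole families in a form called broad. That form also holds muscle genes such as ryr1b, so that the striated sums leave these out.

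All animals were adult female zebrafish of the line Tg(pou4f3:GAP-GFP)s273t, aged 11 to 13 months, in which the pou4f3 promoter drives a membrane-bound green fluorescent protein (GFP) in hair cells. GFP-positive cells with a hair bundle and GFP-negative cells without one were drawn singly into pipettes from the lagena, utricle and saccule, and cells of several fish were pooled. Each cell type had 3 samples, each of 1000 cells, and RNA was amplified before sequencing. By the paper both cell types were collected from each fish, and whether samples of equal number share fish is not stated. Because the nsSCs were chosen by the lack of GFP and of a bundle, they can hold any other kind of cell in the dissociated organs.

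Muscle contracts when myosin heavy chains, each carrying an essential and a regulatory light chain, pull on actin filaments within a repeating unit called the sarcomere. In striated muscle, calcium released through ryanodine receptors binds troponin C, and troponin I and troponin T then let tropomyosin move off the myosin sites of actin. In smooth muscle and in non-muscle cells the trigger is instead phosphorylation of the regulatory light chain, and calponin and transgelin bind the actin filaments. Hair cells have actin-rich stereocilia and an actin belt at their apical junctions, where non-muscle myosin II is known from mammalian hair cells.

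Values are RPKM, read numbers divided by transcript length and by the mapped reads of the sample. They allow only a rough comparison of levels between genes, since evenness of coverage along amplified transcripts of unlike length was not tested. Of the markers fixed for hair cells, 9 of 9 in the table were higher in the hair cell samples, with a summed level of 30170 to 30550 RPKM against 124.8 to 126.2 RPKM in nsSCs. Most of that sum came from s100s and cabp2b, with means of 21338 and 5796 RPKM in hair cells. The list is no independent check, since it was chosen with earlier results known and pou4f3 drives the GFP by which cells were picked. The nsSC samples carried the markers of several cell types, with all 6 red blood cell genes and all 9 fibroblast genes higher there, and summed red blood cell markers of 15730 to 18830 RPKM against 747.1 to 807.1 RPKM in hair cells. Of 9 supporting cell markers 3 were higher in nsSCs and 5 in hair cells, and the list summed to 1451 to 1472 RPKM in nsSCs and to 2291 to 2318 RPKM in the hair cell samples. Mitochondrially encoded genes took 52.5 to 53.9% of all RPKM in nsSCs against 14.9 to 15.8% in hair cells, and the part of this difference in the results was not tested beyond the other scalings that were tried.

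Most contractile protein genes were lower in hair cells than in nsSCs, and a small group was higher. Of the 103 members, 87 reached a mean of 0.1 RPKM in one or both cell types and entered the limma fit on log2(RPKM + 0.1). Genes counted as called when their Benjamini-Hochberg adjusted p was under 0.05 and their fold at least 2 on that scale. By this rule 66 members (75.9% of those tested) were higher in nsSCs, where 35.4% of all 22374 tested genes were called. In the other direction 11 members (12.6%) were higher in hair cells, where 31% of all tested genes were called, and 10 members were called in neither. In bulk samples, fewer cells of a type and less RNA per cell cannot be told apart.

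The samples of each cell type stood apart for most members. All 3 nsSC samples lay above all 3 hair cell samples for 68 of the 87 tested members, beside 9533 of all 22374 tested genes (42.6%). The reverse held for 14 of the 87, beside 9518 of all tested genes (42.5%). Of the 77 called members, 76 had groups that did not overlap, which the calling rule itself favours, so that this count is no separate support. For the 58 tested members with some signal in both cell types, the median difference was -2.69 on the log2 scale (hair cells minus nsSCs), beside 0.37 over the 17575 tested genes of that kind. No plain fold is given for the 37 members listed at 0 in all 3 hair cell samples, of which 26 were above 0 in all 3 nsSC samples. With samples scaled by their median ratio, myl12.1, myl6 and tnnt1 were also called higher in nsSCs (69 members), and with equal total RPKM acta1a and myh10 were also called higher in hair cells (13 members) while mybpc2b, myh9b, smtnl, tnnc1b and tpm2 were no longer called (61 members in nsSCs).

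**Figure D1:**
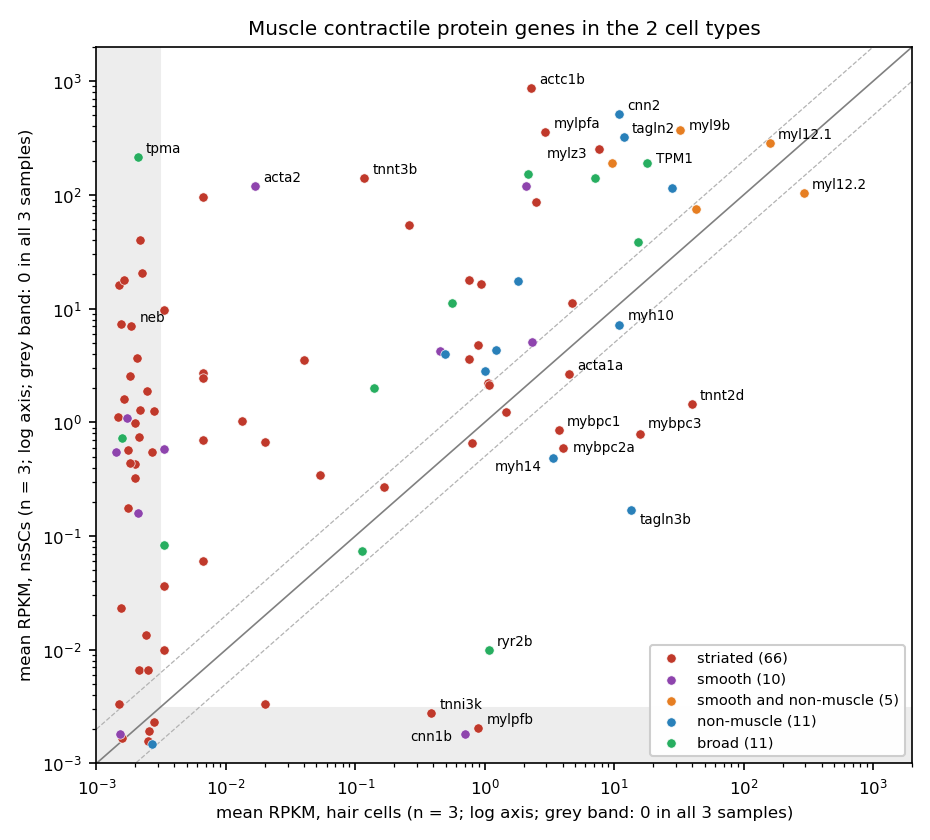
Mean RPKM of each member in hair cells (horizontal) and nsSCs (vertical), both on log axes, with 1 point per gene coloured by form and means over 3 samples. The solid line marks equal levels, the dashed lines a 2-fold difference, and the grey bands hold genes listed at 0 in all 3 samples of a cell type, spread there only for legibility. Most points lie above the line, and tnnt2d, mybpc3, tagln3b and myl12.2 are among the few well below it.

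Summed over members, the 66 striated genes reached 98.0, 100.5 and 93.7 RPKM in the hair cell samples and 1968, 2192 and 2042 RPKM in the nsSC samples, a ratio of 21.2. The 10 smooth muscle genes summed to 5.61 ± 1.13 RPKM (SD, n = 3) in hair cells against 252 ± 14.4 RPKM in nsSCs. The 5 light chain genes shared by smooth muscle and non-muscle cells were the nearest to each other, at 536 ± 11.2 and 1029 ± 15.8 RPKM. They made up most of the 766 ± 9.42 RPKM that all members gave in hair cells, whereas the striated genes gave the largest part of the 5086 ± 165 RPKM in nsSCs.

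**Figure D2:**
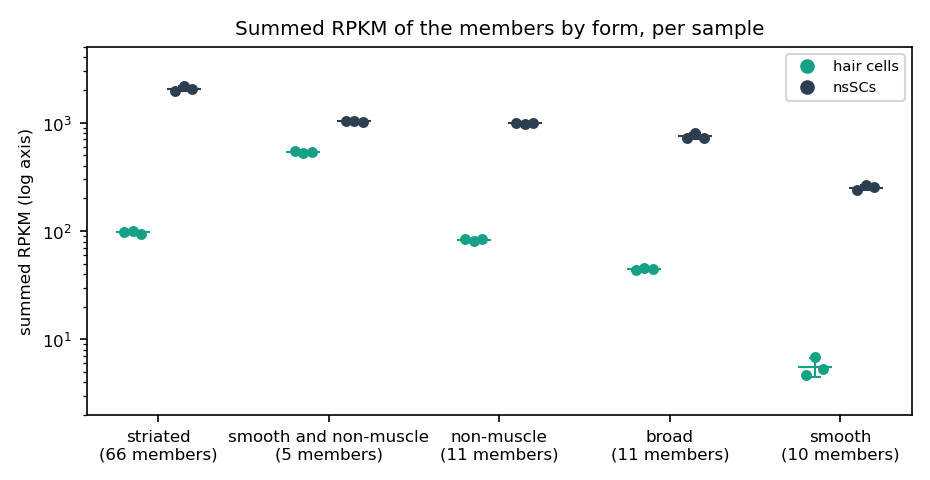
Summed RPKM of the members of each form in every sample (log axis), with hair cell samples in green and nsSC samples in dark blue, and with bars for the mean ± SD of 3 samples. The sums for nsSCs lie above those for hair cells in every form, with the smallest gap for the light chains shared by smooth muscle and non-muscle cells (536 against 1029 RPKM).

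Marker genes of myofibers moved with the striated group. Of 18 myofiber markers found, 12 are themselves members, and of the other 6 the creatine kinase genes ckma and ckmb, the calcium pump gene atp2a1 and the parvalbumin genes pvalb1 and pvalb2 were higher in nsSCs, while casq1b was higher in hair cells. Their summed level was 623.1 to 716.6 RPKM in nsSCs against 8.58 to 10.5 RPKM in hair cells. The whole list, members included, summed to 1942 to 2180 RPKM in nsSCs against 19.8 to 21.4 RPKM in hair cells, with mylpfb and tnni2a.4 at 0 in all nsSC samples. The 8 cardiac markers summed to at most 0.07 RPKM in hair cells and to 1.58 to 2.03 RPKM in nsSCs, and the cardiac light chain gene myl7 and tnnc1a were listed at 0 in all 6 samples. Of the 8, 5 are members, and the other 3 summed to 0.05 to 0.07 RPKM in hair cells and at most 0.04 RPKM in nsSCs. The part of myofibers among the nsSCs in the striated results was not tested.

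Among the myosin heavy chains, the striated members were low in both cell types, unlike the non-member myhc4 given below. How reads that fit several heavy chain genes were counted is not given in the sources used here. The 15 striated heavy chain members summed to 1.44, 0.84 and 0.73 RPKM in hair cells against 8.48, 8.13 and 7.52 RPKM in nsSCs, and 10 of them were listed at 0 in all hair cell samples. The most abundant in nsSCs was 1 of 2 identifiers named myhz1.1 (ENSDARG00000102414), a fast skeletal heavy chain, at 3.37, 4.05 and 3.62 RPKM. Others in nsSCs were the ventricular-type gene vmhcl at 0.98 ± 0.35 RPKM and the slow muscle gene smyhc2 at 0.67 ± 0.12 RPKM, with hair cells at 0 for vmhcl and at 0.02 ± 0.026 for smyhc2. Its neighbour smyhc1 was at 1.21, 0.63 and 0.54 RPKM in hair cells against 1.04, 0.3 and 0.63 RPKM in nsSCs, which overlap, and was not called (limma adjusted p = 0.54). Most striated heavy chain mRNA of nsSCs therefore lay outside the symbols of the set, since the heavy chain gene myhc4, which the naming rule leaves out, was at 117.41, 111.46 and 121.29 RPKM in nsSCs against 0 in all hair cell samples.

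The non-muscle myosin II heavy chains divided by gene. The summed level of the 4 genes was 15.8 ± 0.55 RPKM in hair cells against 14.5 ± 0.53 RPKM in nsSCs, a ratio of 1.09. The order of such close sums depends on the scaling. It is reversed by dividing by the median-ratio factors, which were 1.17 to 1.19 in hair cells and 0.84 to 0.87 in nsSCs. myh14 was at 3.19, 3.68 and 3.3 RPKM in hair cells against 0.51, 0.47 and 0.47 RPKM in nsSCs, and was called higher in hair cells (log2 difference 2.58 ± 0.13 SE, adjusted p = 1.4e-06). myh9a and myh9b went the other way, with means of 0.50 and 1.00 RPKM in hair cells against 3.98 and 2.84 RPKM in nsSCs. The main heavy chain in both cell types was myh10, at 10.55, 11.04 and 11.26 RPKM in hair cells against 7.51, 6.71 and 7.48 RPKM in nsSCs. Its samples did not overlap and its adjusted p was 0.00033, but the difference of 0.59 on the log2 scale was under 2-fold. Both smooth muscle heavy chains, myh11a and myh11b, were listed at 0 in every hair cell sample and reached 1.1 ± 0.16 and 0.54 ± 0.091 RPKM in nsSCs.

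Light chain genes summed to far more RPKM than heavy chain genes, and among them was the highest member of hair cells. myl12.2, a regulatory light chain of smooth muscle and non-muscle myosin II, was at 306.13, 282.89 and 283.81 RPKM in hair cells against 101.37, 108.56 and 100.46 RPKM in nsSCs. It was 2.81-fold higher in hair cells (log2 difference 1.49 ± 0.050 SE, adjusted p = 2e-07) and ranked 315 by mean level among all genes there. The paralog myl12.1 had the reverse order, at 150.13, 160.97 and 167.76 RPKM in hair cells against 272.7, 301.19 and 279.22 RPKM in nsSCs. With a difference of -0.83 it was not called, although the samples of the 2 cell types did not overlap. Thus myl12.2 was at 1.82 times the level of myl12.1 in hair cells, while myl12.1 was at 2.75 times the level of myl12.2 in nsSCs.

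The remaining regulatory light chains of this form were lower in hair cells. myl9b was at 32.73, 29.3 and 34.94 RPKM in hair cells against 407.92, 335.77 and 380.22 RPKM in nsSCs (log2 difference -3.53 ± 0.092 SE, adjusted p = 6e-08). For myl9a the values were 8.75, 10.09 and 9.81 RPKM against 182.12, 207.25 and 181.39 RPKM, a 19.9-fold difference. The essential light chain gene myl6 was at 46.13, 39.61 and 43.75 RPKM in hair cells against 75.54, 82.83 and 69.27 RPKM in nsSCs, apart in all samples and again under the fold required.

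Of the 10 striated light chains 7 were tested, with 6 higher in nsSCs and 1 in hair cells, beside 35.4% and 31% of all tested genes. The fast skeletal regulatory light chain gene mylpfa was at 2.24, 3.81 and 2.78 RPKM in hair cells against 340.29, 388.96 and 341.47 RPKM in nsSCs, 121-fold lower in hair cells (adjusted p = 5.9e-08). Its paralog mylpfb was at 0.71, 1.05 and 0.91 RPKM in hair cells and listed at 0 in all nsSC samples (adjusted p = 2.6e-06), so that mylpfa was still the higher of the pair in hair cells. The hair cell level of mylpfa was 0.0082 of its nsSC level. That share was 0.049 for the red blood cell gene hbba1 (1 of 2 identifiers of that name) and 0.028 for the glial gene mbpa. These genes do not stand for their lists. The share ran from 0.030 (hbaa1) to 0.093 (alas2) among the red blood cell markers and from 0 (plp1a) to 0.71 (sox10) among the glial markers. Other striated light chains lay on both sides, with 0 for myl10 and myl4, 0.0048 for myl1, 0.031 for mylz3 and 0.057 for myl13. In RefSeq gene models of another assembly, GRCz12tu, mylpfa overlaps tbc1d10b in span, which was at 8.3 RPKM in hair cells against 1.5 RPKM in nsSCs. The source of such low hair cell values was not tested. The fast essential light chain genes mylz3 and myl1 were at 251 ± 23.8 and 54.6 ± 1.91 RPKM in nsSCs against 7.68 ± 0.68 and 0.26 ± 0.052 RPKM in hair cells. myl10 and myl4 were at 40.2 ± 4.54 and 20.6 ± 1.69 RPKM in nsSCs and listed at 0 in every hair cell sample, and myl13 was at 16.3 ± 0.36 RPKM in nsSCs against 0.93 ± 0.22 RPKM in hair cells. The 3 that were not tested, myl2b, MYL3 and myl7, stayed at 0.04 RPKM or below in every sample.

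Muscle actin was mostly 1 gene in nsSCs. actc1b, an actin of cardiac and skeletal muscle, was at 830.42, 894.1 and 878.67 RPKM in nsSCs, ranked 70 among all genes there, and was at 2.27, 2.6 and 1.91 RPKM in hair cells (log2 difference -8.53 ± 0.11 SE, adjusted p = 4.2e-09). It gave 98.4% of the striated actin RPKM of nsSCs. The skeletal actin genes acta1b and acta1a differed in direction. acta1b was at 9.16, 10.05 and 10.21 RPKM in nsSCs and at no more than 0.01 RPKM in any hair cell sample, whereas acta1a was at 4.28, 4.13 and 4.99 RPKM in hair cells against 2.65, 3.16 and 2.13 RPKM in nsSCs. The acta1a samples did not overlap (adjusted p = 0.0044), with a difference of 0.75 on the log2 scale that was under 2-fold.

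The smooth muscle actin gene acta2 was at 115.64, 120.99 and 123.69 RPKM in nsSCs against 0, 0 and 0.05 RPKM in hair cells (adjusted p = 1.3e-08). The nsSC samples disagreed for a pair of low actin entries. actc1a was at 0, 1.37 and 0.87 RPKM and an entry named ACTC1_(1_of_many) (ENSDARG00000076126) at 2.21, 0 and 0.84 RPKM in nsSC samples 1, 2 and 3, with hair cells at 0.04 RPKM or below. Each was missing from a sample in which the other was present, and their sums were 2.21, 1.37 and 1.71 RPKM. The call of actc1a as higher in nsSCs (adjusted p = 0.049) rests on groups that overlap and was lost when nsSC replicate 2 or 3, or any hair cell replicate, was left out. Vertebrate actin genes are very alike in sequence, and how reads that fit several of them were counted is not given in the sources used here, so that the split between these entries is uncertain.

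The alpha-actinins, which cross-link actin filaments at the Z disc of striated muscle, were all higher in nsSCs, beside 35.4% of all tested genes. The striated genes actn3a and actn3b were at 3.51 ± 0.33 and 2.74 ± 0.18 RPKM there and at no more than 0.09 RPKM in any hair cell sample, and actn2b was at 0.43 ± 0.19 RPKM with hair cells at 0. The non-muscle gene actn1 was at 1.52, 0.98 and 1.17 RPKM in hair cells against 4.19, 4.07 and 4.76 RPKM in nsSCs (log2 difference -1.76 ± 0.18 SE, adjusted p = 6e-05).

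All 6 tropomyosins were higher in nsSCs, beside 35.4% of all tested genes, and their order differed between the cell types. tpma was at 196.57, 237.61 and 211.84 RPKM in nsSCs, the highest of the 6 there, with a listed value of 0 in each of the 3 hair cell samples (adjusted p = 1.9e-09). TPM1 was the highest in hair cells, at 18.67, 17.34 and 18.02 RPKM, against 187.6, 200.92 and 178.4 RPKM in nsSCs. The smallest difference was that of tpm2, at 13.61, 16.24 and 15.83 RPKM in hair cells against 37.13, 44.84 and 33.32 RPKM in nsSCs (log2 difference -1.32 ± 0.12 SE). tpm4a and tpm3 were at 153 ± 7.01 and 139 ± 4.84 RPKM in nsSCs against 2.14 ± 0.085 and 7.15 ± 0.47 RPKM in hair cells. tpm4b had 11.3 ± 0.74 RPKM in nsSCs against 0.56 ± 0.17 RPKM in hair cells. Thus TPM1 and tpm2 gave 41.8 and 35.3% of the tropomyosin RPKM of hair cells, in which tpma was listed at 0. In RefSeq gene models of another assembly, GRCz12tu, TPM1 overlaps etfa in span. etfa was at 184.2 RPKM in hair cells against 110.3 RPKM in nsSCs, and its part in the TPM1 values was not tested.

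Troponin was the largest class, with 24 genes, and in hair cells most of its RPKM came from a single gene. tnnt2d, a troponin T of the cardiac-type family, was at 42.0, 39.7 and 37.2 RPKM in hair cells against 1.19, 1.52 and 1.61 RPKM in nsSCs. It was 27.5-fold higher in hair cells (log2 difference 4.70 ± 0.13 SE, adjusted p = 6.8e-08) and gave 76.9% of the troponin RPKM of these samples. Every hair cell sample lay far above every nsSC sample. The other 4 genes of the tnnt2 family were called in the other direction, as were 35.4% of all tested genes. The highest of these 4 was tnnt2e, at 0.44, 1.06 and 0.77 RPKM in hair cells against 4.07, 3.27 and 3.42 RPKM in nsSCs. The slow skeletal gene tnnt1 was at 1.08 ± 0.12 and 2.15 ± 0.34 RPKM and was not called.

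**Figure D3:**
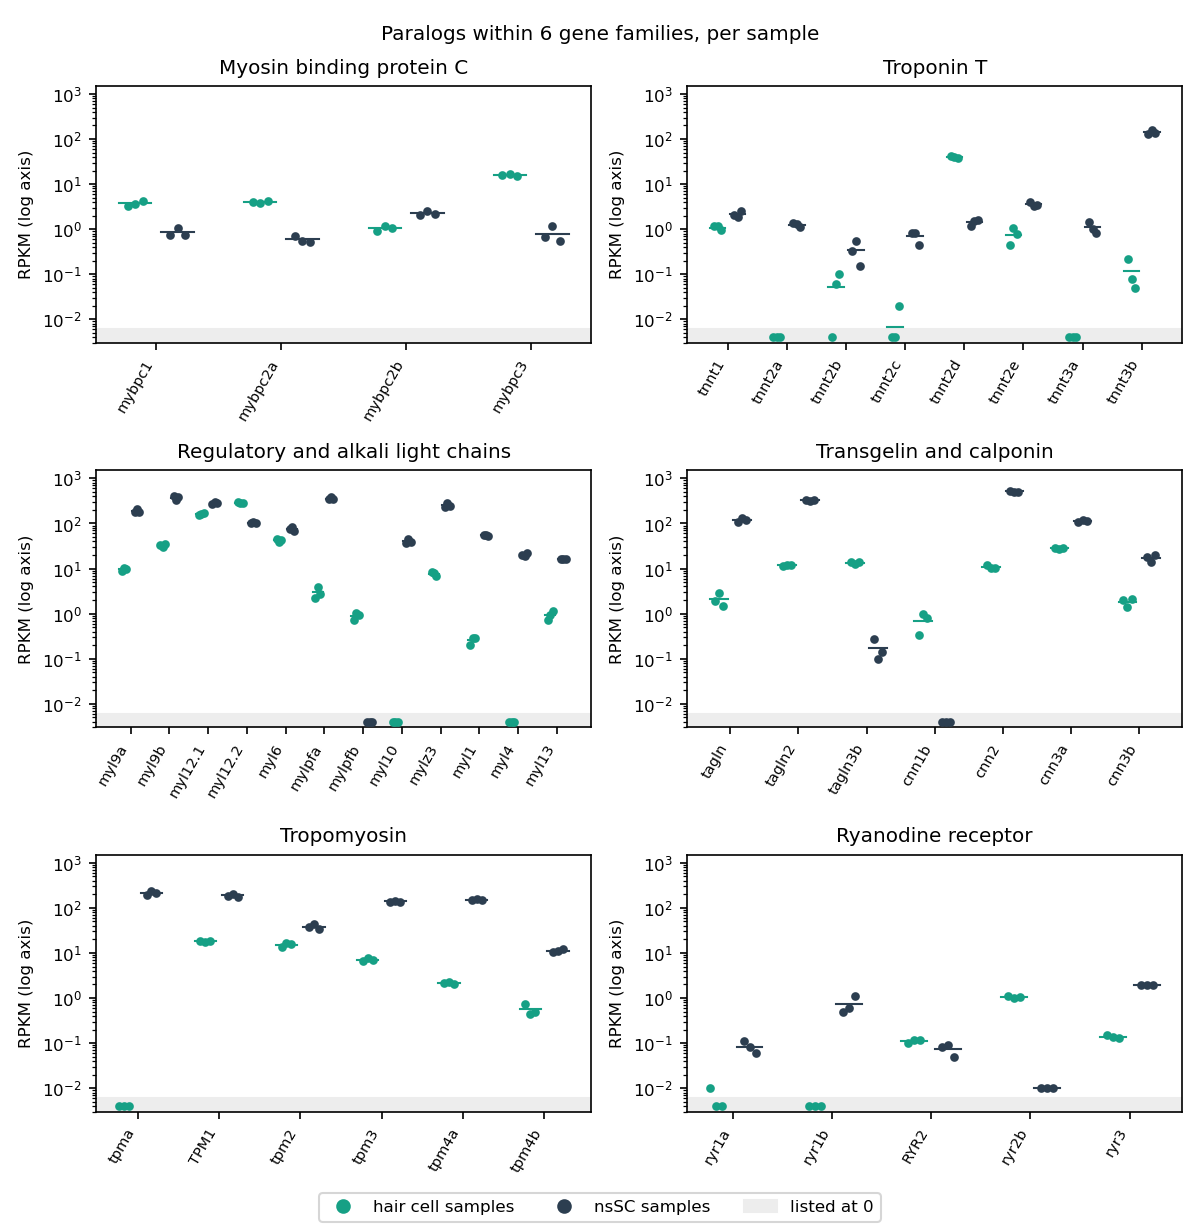
RPKM of paralogs in 6 gene families in each sample (log axes), with hair cell samples in green, nsSC samples in dark blue, short lines for the mean of 3 samples and a grey band for samples listed at 0. In every panel the highest gene differs between the cell types, with tnnt2d, mybpc3, ryr2b, myl12.2, cnn3a and TPM1 highest in hair cells and tnnt3b, mybpc2b, ryr3, myl9b, cnn2 and tpma highest in nsSCs.

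Fast troponin subunits made up most of the troponin RPKM of nsSCs. The 10 fast genes (tnnt3, tnni2 and tnnc2) summed to 345.4, 396.3 and 360.2 RPKM in nsSCs against 4.58, 3.18 and 4.45 RPKM in hair cells. The 8 slow genes (tnnt1, tnni1 and tnnc1) summed to 25.1 ± 1.29 and 6.67 ± 1.26 RPKM. The leading fast genes were the troponin T gene tnnt3b, at 126.84, 156.6 and 136.9 RPKM in nsSCs against 0.22, 0.08 and 0.05 RPKM in hair cells, and the troponin I gene tnni2b.2, at 89.87, 101.67 and 96.07 RPKM in nsSCs and at no more than 0.02 RPKM in any hair cell sample. The fast troponin C gene tnnc2 was at 84.46, 90.43 and 83.48 RPKM in nsSCs against 2.74, 1.75 and 3.0 RPKM in hair cells. Troponin C of the slow and cardiac type, tnnc1b, was the troponin gene with the smallest called difference, at 4.35, 5.85 and 3.88 RPKM in hair cells against 10.21, 12.32 and 10.9 RPKM in nsSCs.

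Troponin I genes that lie next to each other in the zebrafish genome had unequal levels. In nsSCs, tnni2a.1, tnni2a.2, tnni2a.3 and tnni2a.4 were at 16.2, 1.23, 18 and 0 RPKM, and only tnni2a.2 had signal in hair cells, at 1.62, 1.33 and 1.4 RPKM against 1.09, 1.44 and 1.17 RPKM. Those samples overlap, and tnni2a.2 was not called (adjusted p = 0.22). The spans of tnni2a.2 and tnni2a.3 overlap in RefSeq gene models of GRCz12tu, another assembly, so that the split of reads between them is uncertain. In the second cluster tnni2b.2 was at 13.1 times the level of tnni2b.1 in nsSCs. The last troponin-named gene, tnni3k, encodes a kinase that binds cardiac troponin I in mammals and is no troponin subunit. It was at 0.37, 0.53 and 0.25 RPKM in hair cells and listed at 0 in all nsSC samples (adjusted p = 0.00012). The troponin I subunit gene with the highest level in hair cells was tnni2a.2.

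The myosin binding proteins C, which bind myosin along the thick filament, were the family in which most genes were higher in hair cells. That direction was called for 31% of all tested genes. mybpc3, the cardiac form in mammals, was at 15.52, 16.87 and 14.95 RPKM in hair cells against 0.67, 1.15 and 0.54 RPKM in nsSCs (log2 difference 4.22 ± 0.24 SE, adjusted p = 3e-06), a 20.1-fold difference. mybpc2a, of the fast form, was at 4.06, 3.78 and 4.18 RPKM in hair cells against 0.69, 0.56 and 0.53 RPKM in nsSCs (2.57 ± 0.14, adjusted p = 2.3e-06). mybpc1, of the slow form, was at 3.26, 3.7 and 4.24 RPKM in hair cells against 0.76, 1.07 and 0.74 RPKM in nsSCs (2.01 ± 0.18, adjusted p = 3.5e-05). In these 3 genes no nsSC sample reached a hair cell sample. Only mybpc2b had the reverse order, at 0.92, 1.2 and 1.06 RPKM in hair cells against 2.05, 2.51 and 2.15 RPKM in nsSCs (-1.01 ± 0.15, adjusted p = 0.00058), and its fold fell under 2 when hair cell replicate 1 (-0.92) or nsSC replicate 2 (-0.93) was left out.

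The giant protein genes had no value above 0 in hair cells, where RPKM rounded to 2 decimals cannot show absence. Nebulin (neb), which runs along the thin filament, was at 6.55, 7.78 and 6.75 RPKM in nsSCs, and the titin genes ttn.2 and ttn.1 at 1.61 ± 0.17 and 0.32 ± 0.015 RPKM. All 3 were listed at 0 in every hair cell sample. The titin-binding protein telethonin (tcap) was at 17.06, 19.58 and 16.38 RPKM in nsSCs against 0.73, 0.67 and 0.85 RPKM in hair cells (log2 difference -4.39 ± 0.13 SE, adjusted p = 1e-07).

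Ryanodine receptors, the calcium release channels of the sarcoplasmic and endoplasmic reticulum, were at about 2 RPKM or below and differed by gene. ryr2b was at 1.13, 1.01 and 1.08 RPKM in hair cells against 0.01 RPKM in each nsSC sample (log2 difference 3.41 ± 0.14 SE, adjusted p = 5.9e-07). ryr3 was at 1.98, 1.99 and 1.99 RPKM in nsSCs against 0.15, 0.14 and 0.13 RPKM in hair cells (adjusted p = 5.5e-07). The skeletal muscle gene ryr1b was at 0.48, 0.6 and 1.12 RPKM in nsSCs against 0 in hair cells. RYR2 was at 0.11 ± 0.012 and 0.073 ± 0.021 RPKM and was not called. Thus ryr2b gave 80.7% of the ryanodine receptor RPKM of hair cells, and ryr3 gave 68.8% in nsSCs.

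Of the 7 smooth muscle regulators 6 were tested, with 5 higher in nsSCs and 1 in hair cells, beside 35.4% and 31% of all tested genes. Transgelin (tagln), an actin-binding protein and a marker of smooth muscle, was at 109.75, 132.11 and 119.13 RPKM in nsSCs against 1.91, 2.88 and 1.5 RPKM in hair cells (log2 difference -5.82 ± 0.22 SE, adjusted p = 3.3e-07). The smoothelin-like genes smtnl and smtnl1 were at 5.10 ± 0.46 and 4.21 ± 0.48 RPKM in nsSCs against 2.34 ± 0.30 and 0.45 ± 0.035 RPKM in hair cells, and the difference of smtnl fell to -0.99, under 2-fold, without hair cell replicate 1. Calponin 1 (cnn1b) was at 0.33, 0.99 and 0.78 RPKM in hair cells against 0 in all nsSC samples (adjusted p = 0.00017), and cnn1a was at 0 in all 6. The 13 markers of smooth muscle and pericytes, 6 of them members, summed to 257.4 to 286.8 RPKM in nsSCs against 37.96 to 41.99 RPKM in hair cells, with cnn1a, cnn1b and desmb at 0 in nsSCs. The 7 markers that are no members summed to 30.38 to 32.61 RPKM in nsSCs against 35.63 to 38.11 RPKM in hair cells, where desmin (desma) led them. Dividing by the median-ratio factors of the samples reverses the order of these sums. The part of smooth muscle cells and pericytes in the nsSC values was not tested.

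The non-muscle transgelins and calponins were abundant in nsSCs. cnn2 was at 519.35, 509.44 and 509.8 RPKM in nsSCs against 12.2, 10.12 and 10.2 RPKM in hair cells (log2 difference -5.56 ± 0.077 SE, adjusted p = 5.9e-09). tagln2 was at 329.81, 316.84 and 325.69 RPKM in nsSCs against 11.64, 12.24 and 11.69 RPKM in hair cells (-4.76 ± 0.043, adjusted p = 1.8e-09). The calponin 3 genes cnn3a and cnn3b were 4.12-fold and 9.55-fold lower in hair cells, and cnn3a was the highest gene of the class there, at 28.43, 27.06 and 28.11 RPKM.

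1 gene of the class had the reverse order. tagln3b, whose mammalian counterpart is known from neurons, was at 13.85, 12.74 and 14.03 RPKM in hair cells against 0.27, 0.1 and 0.14 RPKM in nsSCs. It was 79.7-fold higher in hair cells (log2 difference 5.71 ± 0.23 SE, adjusted p = 5.1e-07), the largest called difference in that direction among the members on the log2(RPKM + 0.1) scale, while the plain fold of ryr2b was larger at 107.3, over nsSC values of 0.01 RPKM. The identifier of this entry is paired with ABHD10 in the reference list of names, while the RefSeq list gives tagln3b and abhd10b as neighbouring genes. abhd10b has an entry of its own in the table, at 12.26, 9.85 and 9.92 RPKM in hair cells against 32.45, 36.16 and 30.66 RPKM in nsSCs, the opposite order.

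**Figure D4:**
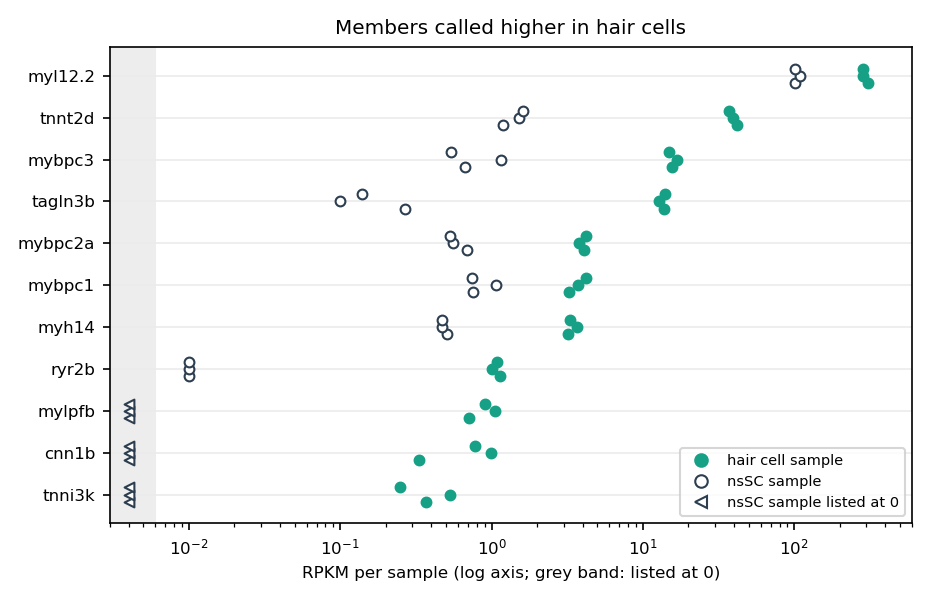
RPKM in each sample (log axis) of the 11 members called higher in hair cells, with filled green circles for hair cell samples, open circles for nsSC samples and open triangles in the grey band for nsSC samples listed at 0. No nsSC sample reaches a hair cell sample in any row, and hair cell levels run from 290.9 RPKM (mean of myl12.2) to 0.38 RPKM (mean of tnni3k).

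Together, the 11 members higher in hair cells were tnnt2d, mybpc3, mybpc2a, mybpc1, mylpfb and tnni3k of the striated form, myh14 and tagln3b of the non-muscle form, cnn1b of the smooth form, ryr2b and myl12.2. Only 4 of them, myl12.2, tnnt2d, mybpc3 and tagln3b, reached 10 RPKM in hair cells. The 3 of lowest level, mylpfb, cnn1b and tnni3k, were at 0 in nsSCs and under 1 RPKM in hair cells on average, and were lost with a pseudocount of 1 RPKM or a filter of 1 RPKM. The kit used for the libraries does not mark strand, so that reads from a stretch shared by 2 genes cannot be assigned by strand. The overlaps given here are of whole gene spans, introns included, and whether exons are shared was not tested. By RefSeq gene models of another assembly, GRCz12tu, 5 of the 11 overlap another gene in span, namely mybpc1 (apaf1), mybpc3 (a long non-coding RNA), mylpfb (med1), cnn1b (tlcd4b) and tnni3k (fpgt), and the other 6 do not. Of all 91 members with a span in those models, 39 overlap another gene, so that overlap is not particular to the 11. fpgt was itself at 11.7 RPKM in hair cells against 2.42 RPKM in nsSCs and was called in the same direction as tnni3k, apaf1 was at 6.44 and 3.66 RPKM and was not called, and med1 was at 0.88 and 2.08 RPKM, opposite to mylpfb.

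Not all genes that lie beside these members were looked up. Apart from the overlapping genes above, only myom1a among those looked up was higher in hair cells, while cald1b, actn2b and abhd10b were higher in nsSCs. myl12.2 lies next to myom1a, a gene of the M band of the sarcomere, which was at 88.07, 89.37 and 81.45 RPKM in hair cells against 0.2, 0.31 and 1.04 RPKM in nsSCs, also higher in hair cells. Caldesmon 1b (cald1b), next to tnnt2d, was at 0.57, 1.05 and 0.95 RPKM in hair cells against 39.32, 45.17 and 40.56 RPKM in nsSCs, the opposite of tnnt2d. ryr2b lies next to the member actn2b, which was at 0 in hair cells.

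Across replicates the members varied about as much as other genes of their level. In nsSCs 31 members reached 10 RPKM, with a median coefficient of variation of 6.52% over the 3 samples, beside 5.93% for all 5082 genes of at least 10 RPKM. In hair cells 13 members reached that level, with 5.57% beside 5.19% over 6295 genes. The widest spread was that of cnn3b in nsSCs, at 15.8%. Of the 16 members not tested, 6 were at 0 in all samples and none exceeded 0.11 RPKM in any sample.

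Other proteins of the sarcomere, taken as a list of 34 further genes, held genes called in each direction. Of the 27 tested, 9 were higher in hair cells while 13 had the reverse order, where 31% and 35.4% of all tested genes were called, and the 15 with signal in both cell types had a median difference of 1.61, beside 0.37 for all genes of that kind. smpx, a small protein of striated muscle whose human gene is linked to deafness, was at 360.6, 341.82 and 368.77 RPKM in hair cells against 3.52, 3.57 and 3.12 RPKM in nsSCs (log2 difference 6.67, adjusted p = 2.4e-09). The actin-binding repeat protein gene xirp2a was at 42.19, 40.92 and 38.33 RPKM in hair cells against 1.25, 1.38 and 1.01 RPKM in nsSCs (4.96, adjusted p = 5e-08). Beside myhc4, the highest of the genes called in nsSCs were the Z-disc genes ldb3b and myoz1a, at 14.9 and 5.22 RPKM with hair cells at 0. The pointed-end capping gene tmod4 was at 20.1 RPKM in hair cells against 21.8 RPKM in nsSCs and was not called.

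**Figure D5:**
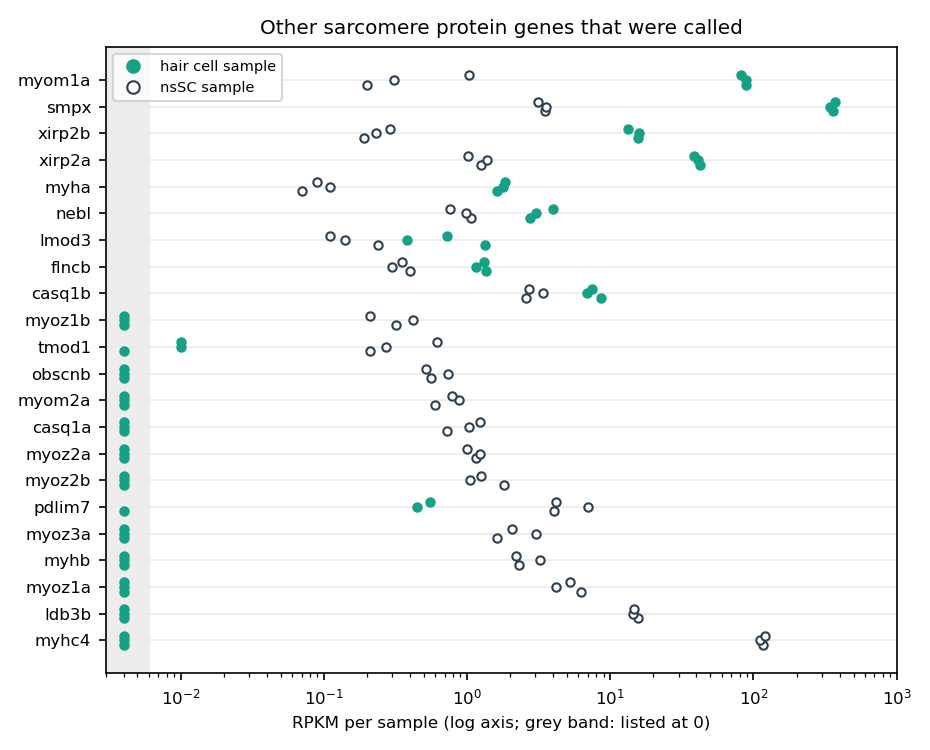
RPKM in each sample (log axis) of the 22 called genes among other sarcomere proteins, ordered by log2 difference, with filled green circles for hair cell samples, open circles for nsSC samples and a grey band for samples listed at 0. The 9 genes at the top were higher in hair cells, led in level by smpx at 357 RPKM, and the 13 below were higher in nsSCs, led by myhc4 at 117 RPKM.

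Most genes of muscle metabolism and excitation were higher in nsSCs, the direction in which 35.4% of all tested genes were called, with 31% in the other. Of 19 genes of myosin assembly and muscle enzymes, all tested, 14 were higher in nsSCs and 2 in hair cells. Muscle creatine kinase ckmb was at 188.61, 216.31 and 198.24 RPKM in nsSCs against 1.94, 1.21 and 0.76 RPKM in hair cells, whereas glycogen phosphorylase pygmb was at 43.8 RPKM in nsSCs against 150.4 RPKM in hair cells. Of 31 genes of excitation and calcium handling 24 were tested, of which 19 were higher in nsSCs and 4 in hair cells. The calcium buffer genes pvalb3 and pvalb4, parvalbumins, were at 1057.5 and 696 RPKM in nsSCs against 3.11 and 0.027 RPKM in hair cells. In the other direction the acetylcholine receptor subunit genes chrnb1 and chrne, of the muscle type, were at 23.2 and 18.5 RPKM in hair cells against 2.00 and 0.53 RPKM in nsSCs. Of the other muscle-type subunits, chrnd and chrng were called higher in nsSCs, at 0.22 and 0.28 RPKM with hair cells at 0.01 RPKM or below, and chrna1 was too low to be tested.

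Most muscle transcription factor genes were called in neither direction. Of 27 such genes 20 were tested, with 5 higher in hair cells and 2 higher in nsSCs (background 31% and 35.4%). six1b, which has known roles in both muscle and the ear, was at 64.2, 64.02 and 65.84 RPKM in hair cells against 6.6, 5.13 and 5.7 RPKM in nsSCs (log2 difference 3.46, adjusted p = 7.7e-08). The muscle determination genes myod1 and myf5 were at 0.66 and 0 RPKM in hair cells against 0.13 and 0 RPKM in nsSCs, and myog was at 0.1 RPKM or below in every sample. Although under 1 RPKM, myod1 is among the 5 called higher in hair cells (log2 difference 1.74, limma adjusted p = 0.00093).

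Among 25 genes of non-muscle actomyosin regulation 23 were tested, of which 12 were higher in nsSCs, led by the cytoplasmic actin genes actb2 and actb1, and 4 in hair cells, beside 35.4% and 31% of all tested genes. Among these 4 are genes of the phosphatase that removes phosphate from the regulatory light chain. ppp1cb was at 422.26, 410.99 and 417.1 RPKM in hair cells against 105.87, 101.78 and 99.72 RPKM in nsSCs, and ppp1r12a at 12.2 and 4.66 RPKM. Another subunit gene of such phosphatases, ppp1r12c, had the reverse order, at 0.73 and 5.21 RPKM (log2 difference -2.67, adjusted p = 8.6e-07). The main kinase for that light chain in smooth muscle, mylka, was at 0.67 RPKM in hair cells against 8.50 RPKM in nsSCs, while mylk4a was at 14.8 and 2.15 RPKM. The mylka values are those of 1 of 2 identifiers of that name. Of the 27 further genes of smooth muscle and pericytes that hold both kinases 25 were tested, with 20 higher in nsSCs and 3 in hair cells, again beside 35.4% and 31% of all tested genes, the highest of the 3 being desmin (desma) at 33.86, 35.53 and 33.06 RPKM in hair cells against 1.99, 2.07 and 1.93 RPKM in nsSCs.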

How the data were processed

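With CLC Genomics Workbench and GRCz10 as the genome, the authors mapped the reads and deposited RPKM values per gene and sample (read numbers per transcript length and per mapped reads, rounded to 2 decimals). Their methods also name HTSeq count, and versions are not given in the sources used here. The paper gives an approximate read number per sample, but RPKM hold no counts per gene, so that no counting interval is given. Of 35919 entries, 31701 Ensembl genes had a value in all 6 samples.

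Genes whose mean reached 0.1 RPKM in hair cells, nsSCs or both were fitted with limma 3.58.1 (R 4.3.3, statmod 1.5.0) on log2(RPKM + 0.1), hair cells minus nsSCs, with trended, robust variance moderation and Benjamini-Hochberg adjustment over all tested genes. Fold changes on that scale understate those of low genes, and plain folds are ratios of mean RPKM. With 3 samples against 3, an exact permutation test cannot go below 0.1. The p-values measure the spread between samples. Sums and plots used Python 3.11.15, pandas 2.3.3, numpy 2.4.6 and matplotlib 3.10.9.

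Members were matched by symbol, and each was put in a form and role by name. The members, markers and related lists were chosen with earlier results of these data known. Named members were the highest by mean RPKM in each form and role, those called higher in hair cells, and those whose samples disagreed. Genes named outside that rule (untested members, neighbours, overlapping genes, myog, myod1, myf5, mylka, mylk4a, tmod4, pvalb1, atp2a1, casq1b, ppp1r12c, chrnd, chrng, chrna1, hbba1, mbpa, hbaa1, alas2, plp1a, sox10) were chosen after their values were seen. Of the members, 99 had a symbol in the reference list of names and 91 matched the RefSeq list of GRCz12tu by symbol, which was used for names, neighbours and overlaps only. 6 entries share a symbol with another identifier. Alternatives were other pseudocounts, filters, fold minimums and scalings, a replicate block, limma with neither trend nor robust moderation, each sample left out in turn, and the study's rule.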

Additional observations from a re-analysis of the deposited data

How the results depend on the processing

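The 11 members higher in hair cells and the 66 higher in nsSCs stayed within 1.5 times these counts under every alternative that was run. The count in hair cells ran from 8, with a pseudocount or a filter of 1 RPKM (without cnn1b, mylpfb and tnni3k), to 13 without a fold minimum or with samples scaled to the same total RPKM (acta1a and myh10 added). The count in nsSCs ran from 48, with a pseudocount of 1 RPKM, to 69 without a fold minimum, with median-ratio scaling or with mitochondrial genes taken out (myl12.1, myl6 and tnnt1 added). Leaving out each sample in turn gave 11 in hair cells and 63 to 66 in nsSCs, with all tested genes called at 14649 to 14828. The study's rule gave 11 and 64. All tested genes called fell from 14846 to 9794 with a pseudocount of 1 RPKM and to 9428 with a fold minimum of 4. The fold minimum of 4 is a stricter cut on the same fit. A larger pseudocount shrinks the log2 differences of low genes, as for smtnb, from -2.69 to -0.65 with a limma adjusted p of 9.9e-05. Scaling moved the median log2 difference of all tested genes to -0.48 (median-ratio), 0.49 (total RPKM) and -0.36 (mitochondrial genes out). In some settings 2 uncalled members changed sign: smyhc1, at 0.29, was at -0.12 with median-ratio scaling, -0.028 with mitochondrial genes out, and -0.02 without HC replicate 1 and -0.104 without nsSC replicate 2 (from -0.104 to 0.652 over all samples left out), and tnni2a.2, at 0.22, was at -0.22 with median-ratio scaling and -0.12 with mitochondrial genes out. No called member changed sign in any of these settings. The same replicate number gave correlations of -0.05, 0.02 and 0.00 between the cell types. With 3 samples per cell type these values cannot show whether the numbers pair the samples. With the number as a replicate block, 11 and 66 members and 14887 genes were called. Under the 3 scalings the summed RPKM of striated members in HC ran from 82.2 to 117 and the summed RPKM of striated members in nsSC from 1769 to 2432. With a pseudocount of 1 RPKM the calls in nsSCs fell to 8 of other sarcomere proteins, 12 of excitation and calcium handling and 10 of smooth muscle and pericytes. RPKM hold no counts per gene, so that a listed 0 does not show absence. Motifs in promoters were not run.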
